A study of Mus musculus with 6 samples.

Results

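Transcripts of 10 genes that mark T lymphocytes and natural killer (NK) cells were followed in liver tumors of WT and Top1mt-KO mice. Cd3e, Cd3g, Cd4, Cd8a, Cd8b1, Nkg7, Gzma, Gzmb, Prf1 and Ncr1 were chosen by symbol from the 30236 genes listed, and all 10 were found. RNA was sequenced from 3 tumors of each genotype, and the tumors were compared for the transcripts of these lymphocytes. All mice, WT included, were C57BL/6 males given the carcinogen diethylnitrosamine on postnatal day 14 and then the hepatotoxin carbon tetrachloride, from 8 weeks of age over 14 weeks, with tumors taken at 22 weeks. Top1mt encodes a topoisomerase found only in mitochondria, and in Top1mt-KO mice the gene was disrupted constitutively, in tumor cells and in infiltrating cells alike. The tissue was not sorted. The labels do not tie the tumors to separate mice, so p-values measure only the spread between these tumors.

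T cells recognise antigen through a receptor that signals by way of the CD3 chains, among them CD3 epsilon (Cd3e) and CD3 gamma (Cd3g). CD4 marks helper and regulatory T cells, and the CD8 alpha and beta chains (Cd8a, Cd8b1) mark killer T cells, although CD8 alpha is also found on some dendritic cells. NK cells kill without such a receptor and carry NKp46, the product of Ncr1. Both kinds of killer cell store perforin (Prf1), which opens the target membrane, and granzymes A and B (Gzma, Gzmb), proteases that act inside the target, in granules whose membrane holds NKG7. The liver is rich in NK cells and related innate lymphocytes.

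The promoters of the genes that the results turn on are shown first. Cd3e and Cd3g were the genes whose genotypes did not overlap, in opposite directions. Nkg7, Gzma and Ncr1 were lowest in the same library, as was Cd8a, whose promoter is not shown. Each sequence shown is the RefSeq promoter on GRCm38.p6, from 250 bases before the start of the gene to 50 after it. It is written 5′ to 3′ on the strand of the gene. An entry was matched for 8 of the 10 genes, all but Cd4 and Cd8b1. Capitals mark matches on either strand to TGTGGT (RUNX factors), GTGTGA (T-box factors) or GGAAGT (ETS factors), families that act in T and NK cells. The matches shown share no bases with each other.
Cd3e, chr9:45009562-45009861, minus strand: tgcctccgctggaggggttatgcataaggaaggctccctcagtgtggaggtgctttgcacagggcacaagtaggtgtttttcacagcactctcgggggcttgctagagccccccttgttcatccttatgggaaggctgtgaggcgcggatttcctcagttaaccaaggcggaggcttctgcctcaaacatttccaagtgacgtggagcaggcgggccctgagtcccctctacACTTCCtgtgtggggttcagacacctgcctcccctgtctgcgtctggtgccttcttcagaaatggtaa
Cd3g, chr9:44980382-44980681, minus strand: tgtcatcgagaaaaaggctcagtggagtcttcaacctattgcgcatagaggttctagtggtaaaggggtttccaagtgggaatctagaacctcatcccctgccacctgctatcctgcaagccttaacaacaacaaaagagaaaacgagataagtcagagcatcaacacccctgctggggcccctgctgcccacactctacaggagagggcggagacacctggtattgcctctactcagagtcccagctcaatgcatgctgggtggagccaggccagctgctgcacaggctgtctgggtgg
Nkg7, chr7:43436888-43437187, plus strand: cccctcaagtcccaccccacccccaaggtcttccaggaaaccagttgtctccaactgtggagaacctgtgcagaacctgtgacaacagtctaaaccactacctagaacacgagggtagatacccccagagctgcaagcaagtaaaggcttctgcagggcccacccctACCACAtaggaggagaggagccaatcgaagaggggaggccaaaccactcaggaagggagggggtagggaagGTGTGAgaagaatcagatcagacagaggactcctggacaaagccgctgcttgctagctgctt
Gzma, chr13:113100932-113101231, minus strand: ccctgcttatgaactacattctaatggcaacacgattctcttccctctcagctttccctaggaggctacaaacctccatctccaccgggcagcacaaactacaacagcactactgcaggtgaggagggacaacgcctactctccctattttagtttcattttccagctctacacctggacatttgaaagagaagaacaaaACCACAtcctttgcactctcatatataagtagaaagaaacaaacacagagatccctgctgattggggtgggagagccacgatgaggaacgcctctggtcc
Ncr1, chr7:4337465-4337764, plus strand: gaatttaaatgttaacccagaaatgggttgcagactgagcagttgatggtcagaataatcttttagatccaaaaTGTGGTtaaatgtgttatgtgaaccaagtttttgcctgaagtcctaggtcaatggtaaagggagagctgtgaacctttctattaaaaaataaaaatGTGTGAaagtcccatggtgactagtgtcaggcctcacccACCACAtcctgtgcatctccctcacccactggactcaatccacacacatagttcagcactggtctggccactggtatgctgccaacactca
The RUNX letters were in 5 of the 8 promoters, those of Nkg7, Gzma, Gzmb, Prf1 and Ncr1, and in 16.9% of 27025 promoters of this length. The T-box letters were in 3, those of Nkg7, Gzmb and Ncr1, and in 14.4% of all promoters. The ETS letters were in 2, those of Cd3e and Prf1, and in 24.1% of all promoters. Nkg7 and Ncr1 thus held both RUNX and T-box letters, and Cd3g and Cd8a held none of the 3 motifs. A match is a match of letters and not a bound site.

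Cd3e (chr9:44998740-45009627) and Cd3g (chr9:44969572-44980431) lie on the minus strand of GRCm38, 18308 bases apart, with 1 protein-coding gene between them. Cd8b1 (chr6:71322788-71337494) and Cd8a (chr6:71373427-71379173) are neighbours on the plus strand, 35932 bases apart. Among the 10 genes, the exons of Cd3e share bases with another annotated gene, the antisense transcript Gm48719, over 135 bases or 3.31% of its exon length. The kit kept strand, and whether counting used it is not given in the sources used here.

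Values are log2 expression as deposited by the authors, normalized between libraries, so that 1 unit is a doubling. Weakly expressed genes appear drawn together on this scale, which understates their differences, and depth is unknown. Each set of 3 values below is given in the order of replicates 1, 2 and 3. The hepatocyte marker Alb lay between 20.26 and 21.12 in the 6 libraries. Top1mt was 5.99 in the library labelled WT replicate 2, against its label lower than in 2 of the 3 libraries labelled KO, and the genotypes overlapped (7.71, 5.99 and 8.01 in WT, 5.58, 6.41 and 6.32 in KO). KO replicate 1 stood apart through Gm42418, which took 17.7% of the values summed on a linear scale there and at most 0.387% elsewhere. Directions rest on the labels, and the differences of the 10 genes were also computed without each library.

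The T and NK cell genes were weakly expressed in every tumor. Their log2 values ran from 0.87 to 5.23, with means between the 45.9th and the 57.5th percentile of all genes listed. For comparison, the general leukocyte gene Ptprc (CD45) lay between 9.07 and 9.70. Per kilobase of exon, the log2 levels over both genotypes were 3.81 for Nkg7, 3.77 for Gzma, 3.23 for Prf1, 2.23 for Gzmb, 2.13 for Cd8b1, 2.06 for Cd8a, 1.91 for Cd4, 1.80 for Ncr1, 1.47 for Cd3g and 0.25 for Cd3e. In this order over both genotypes Nkg7, Gzma and Prf1 came first and Cd3g and Cd3e last. Exon length joins all annotated transcripts of a gene and can exceed the RNA present, so this order is approximate. The order differed within the KO tumors, where Cd3g (1.92) lay above Ncr1 (1.74), and Gzmb (2.11) below Cd8b1 (2.56) and Cd8a (2.23). From Gzmb down to Ncr1 in the order over both genotypes, neighbours differed by at most 0.15, less than the within-group SD of either. In the same order, only the step from Cd3g to Cd3e, 1.21, exceeded the SD of both genes at its ends (0.30 and 0.55). This step lay in the KO tumors, with 1.92 for Cd3g and -0.26 for Cd3e per kilobase, while the WT levels of 1.01 and 0.77 differed by less than either SD.

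**Figure D1:**
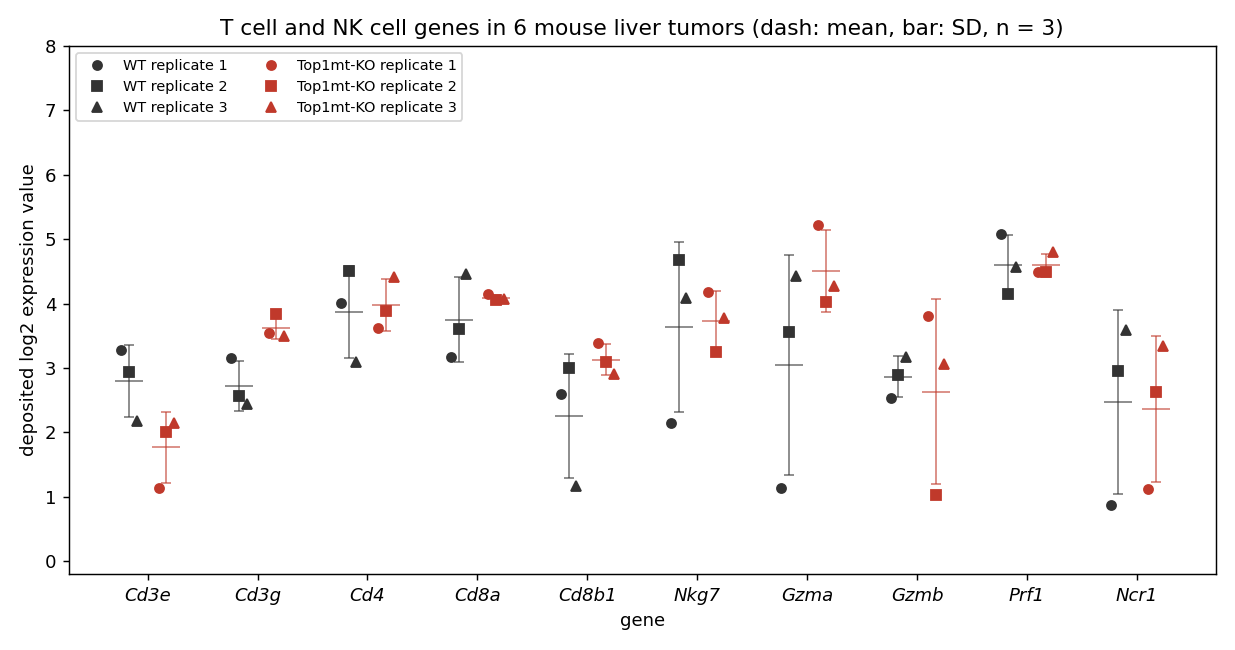
Deposited log2 values of the 10 T and NK cell genes (y axis) in 3 WT and 3 Top1mt-KO tumors, with 1 point per library and the mean and SD of each genotype. The genotypes do not overlap for Cd3e, where KO is lower, and Cd3g, where KO is higher, and overlap for the other 8 genes.

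Between Top1mt-KO and WT, 0 of the 10 genes reached an adjusted p of 0.05 in limma's fit of all 22677 genes tested, as did 0% of those genes. The smallest adjusted p of the 10 was 0.999. Unadjusted p-values under 0.05 were found for 0 of the 10, where 4.34% of all genes tested had one (1.79% higher and 2.56% lower in KO). The KO mean was higher in 7 genes and lower in 3, and over all genes tested it was higher in 47.7%. The median difference was 0.10 on the log2 scale for the 10 genes and -0.015 for all genes tested. In whole tissue, fewer cells of a type and less RNA per cell cannot be told apart. The genotypes did not overlap for 2 of the 10, Cd3e and Cd3g, against 8.28% of all genes tested (3.95% higher and 4.33% lower in KO).

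Cd3e, the epsilon chain, had values of 3.27, 2.94 and 2.18 in the WT tumors and 1.14, 2.01 and 2.15 in the KO tumors. The highest KO tumor lay just under the lowest WT tumor, a narrow separation. The KO minus WT difference was -1.03 on the log2 scale (standard error 0.50, 95% interval -2.18 to 0.13), with an adjusted p of 0.999 by limma. It was -1.33 without WT replicate 3 and -0.71 without KO replicate 1. The latter library held the lowest Cd3e value and was the one that stood apart in Gm42418. An exact two-sided permutation test gave p = 0.1, the smallest that 3 tumors against 3 can give. With quantile normalization, and relative to general leukocyte genes, the genotypes overlapped.

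Cd3g, the gamma chain, had values of 3.16, 2.57 and 2.44 in the WT tumors and 3.55, 3.83 and 3.50 in the KO tumors. All 3 KO tumors were above all 3 WT tumors. The difference was 0.90 on the log2 scale (standard error 0.44, 95% interval -0.11 to 1.91), again with an adjusted p of 0.999 by limma and p = 0.1 in the exact permutation test.

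Both chains were then set against each other within each library, a comparison chosen after their values were seen and not tested. Cd3g minus Cd3e on the log2 scale was -0.11, -0.37 and 0.26 in the WT tumors and 2.40, 1.82 and 1.35 in the KO tumors. In WT tumors the chains were listed close to each other, and in all 3 KO tumors the gamma chain was listed above the epsilon chain. The genotypes differed by 1.93 in this quantity, and by 1.66 to 2.18 with any 1 library left out. Cd3e and Cd3g were picked for separating in opposite directions, so this gap follows from the choice and adds nothing to their single values.

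The coreceptor genes overlapped between genotypes. Cd4 had values of 4.02, 4.51 and 3.10 in WT and 3.62, 3.89 and 4.41 in KO. Its highest and its lowest value were both in WT tumors. The difference was 0.10 (standard error 0.50, adjusted p 0.999 by limma), 0.42 without WT replicate 2 and -0.29 without WT replicate 3.

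Cd8a had values of 3.17, 3.61 and 4.47 in WT and 4.15, 4.06 and 4.06 in KO. The KO tumors lay close together, with an SD of 0.049 against 0.66 in WT. The difference was 0.34 (standard error 0.46, adjusted p 0.999 by limma), 0.051 without WT replicate 1 and 0.70 without WT replicate 3, where the genotypes no longer overlapped.

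Cd8b1 had values of 2.60, 3.0 and 1.18 in WT and 3.38, 3.10 and 2.91 in KO. WT replicate 3 was the lowest for Cd8b1 and the highest for Cd8a, its partner chain. The difference was 0.87 (standard error 0.57, adjusted p 0.999 by limma) and 0.33 without WT replicate 3. Without the library labelled WT replicate 2 it was 1.24 and without KO replicate 3 it was 0.98, and in both cases the genotypes did not overlap. The balance of Cd8a against Cd4 was -0.85, -0.89 and 1.37 on the log2 scale in the WT tumors and 0.53, 0.17 and -0.35 in the KO tumors, with more spread among WT tumors than between the genotypes.

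**Figure D2:**
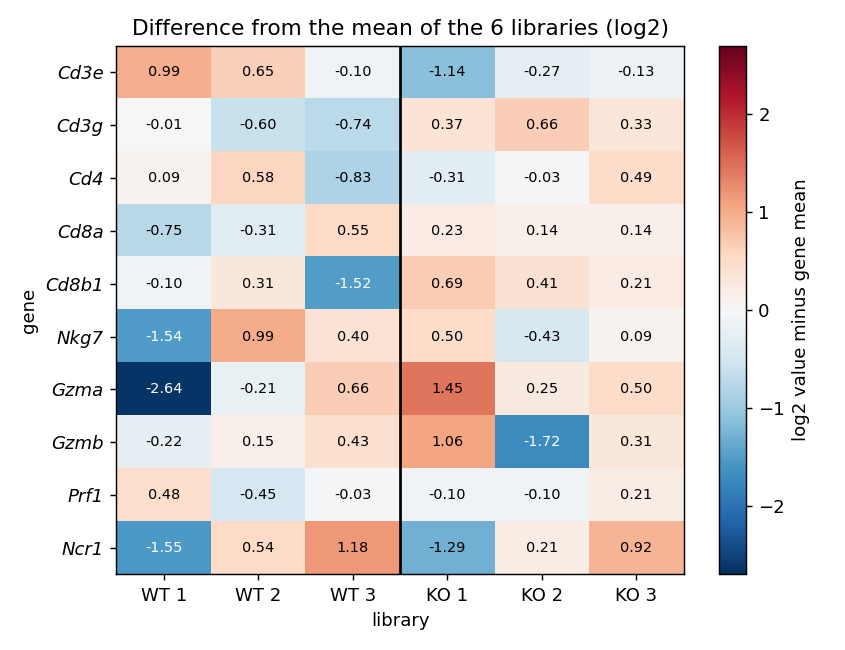
Log2 value of each of the 10 genes (rows) in each library (columns) minus the mean of that gene over the 6 libraries, printed in the cell and shown in colour. WT replicate 1 holds the lowest value of Nkg7, Gzma, Ncr1 and Cd8a, KO replicate 2 that of Gzmb and WT replicate 3 that of Cd8b1.

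Granule and NK cell genes overlapped between genotypes, and most varied widely among tumors of 1 genotype. Gzma, granzyme A, had values of 1.14, 3.57 and 4.43 in WT and 5.23, 4.03 and 4.27 in KO. WT replicate 1 lay far under the rest, and the range over the tumors was the widest of the 10 genes. The difference, 1.46 on the log2 scale, was also the largest in size (standard error 0.84, 95% interval -0.48 to 3.41, adjusted p 0.999 by limma). It was 0.51 without WT replicate 1 and 2.16 without WT replicate 3, where the genotypes did not overlap.

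Nkg7, the granule membrane protein gene, had values of 2.15, 4.68 and 4.08 in WT and 4.18, 3.25 and 3.77 in KO. WT tumors held both ends of its range, with replicate 1 the lowest. The difference was 0.10 (standard error 0.69, adjusted p 0.999 by limma), -0.64 without WT replicate 1 and 0.62 without WT replicate 2.

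Ncr1, the NK cell receptor gene, had values of 0.87, 2.96 and 3.60 in WT and 1.13, 2.63 and 3.34 in KO. In each genotype replicate 1 lay far below the other tumors, and the genotypes covered nearly the same range. The difference was -0.11 (standard error 0.84, adjusted p 0.999 by limma), -0.91 without WT replicate 1 and 0.51 without KO replicate 1.

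Gzmb, granzyme B, had values of 2.53, 2.90 and 3.18 in WT and 3.81, 1.03 and 3.06 in KO. KO tumors held both ends of its range, and WT replicate 1 was not set apart as it was for Gzma. The difference was -0.23 (standard error 0.73, adjusted p 0.999 by limma), 0.57 without KO replicate 2 and -0.82 without KO replicate 1, the library that stood apart in Gm42418.

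Prf1, perforin, had values of 5.08, 4.14 and 4.56 in WT and 4.49, 4.50 and 4.80 in KO. It was the most even of the granule genes, and its highest and lowest values were in WT. The difference was 0.0018 (standard error 0.39, adjusted p 1.0 by limma), with a 95% interval of -0.90 to 0.90 that was the narrowest of the 10. Granzyme A minus perforin on the log2 scale was -3.94, -0.58 and -0.13 in WT tumors and 0.73, -0.47 and -0.53 in KO tumors. The value in WT replicate 1 joins the lowest Gzma and the highest Prf1 value, and adds nothing to those single values.

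**Figure D3:**
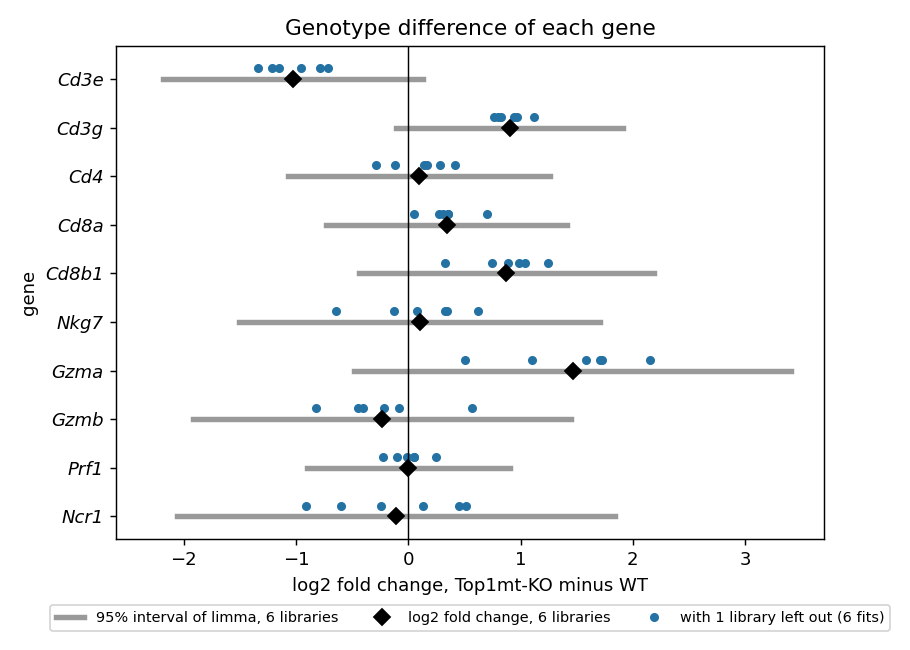
Log2 fold change of each gene between Top1mt-KO and WT, its 95% interval from limma and the values with 1 library left out (6 fits per gene). All 10 intervals hold 0, the values of Cd3e stay below 0 and those of Cd3g above 0 in all 6 fits, and those of 5 genes change sign.

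The within-group SD was 1.29 for Gzma, 1.29 for Ncr1, 1.04 for Gzmb and 0.99 for Nkg7, where limma's trend over all genes gave 0.67 to 0.70 at their levels. Cd8b1 lay at its trend value, and Cd3e, Cd3g, Cd4, Cd8a and Prf1 lay below theirs. Cd3e, Cd8b1, Gzma, Gzmb and Ncr1 each had a lowest value between 0.87 and 1.18. At such values, a tumor without reads of the gene cannot be told apart from a tumor with few.

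**Figure D4:**
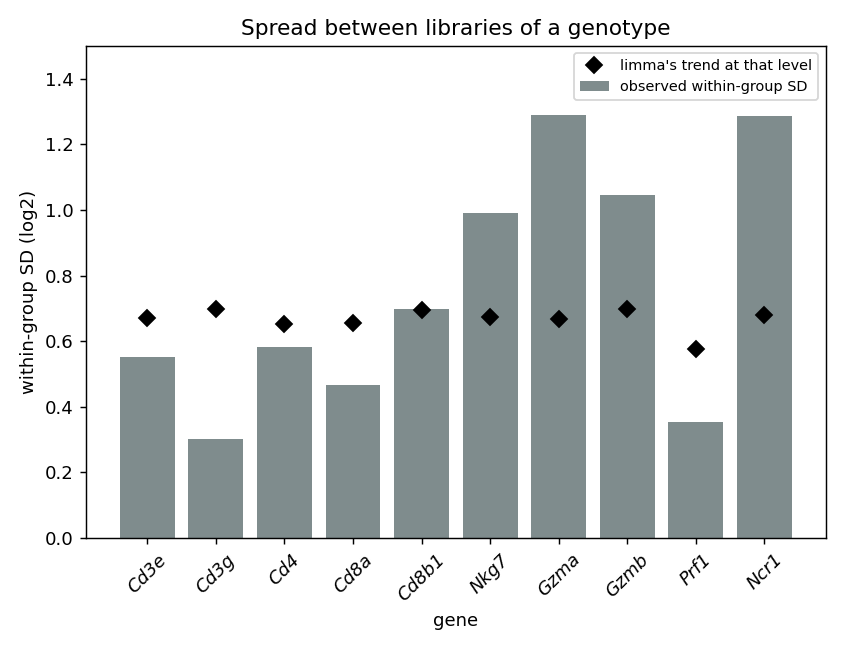
Within-group SD of the log2 values of each gene beside the SD that limma's trend gives for genes at the same mean level. Nkg7, Gzma, Gzmb and Ncr1 lie above the trend, and Cd3g lies furthest below it.

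WT replicate 1 was looked at further after these values were seen. The mean centred log2 value of Nkg7, Gzma and Ncr1 was -1.91 there and 0.0077 to 0.74 in the other tumors. These 3 genes were grouped for their low values there, so this low mean follows from the choice. With Gzmb and Prf1 added, the mean of the 5 granule and NK genes was -1.09 there and -0.36 to 0.52 in the others. Prf1 was highest in WT replicate 1, at 5.08. WT replicate 1 was the lowest for 4 of the 10 genes, Nkg7, Gzma, Ncr1 and Cd8a, and for 17.4% of all genes tested. Over 24 genes of T cell receptor signalling and identity, which hold none of the 10, it was the lowest for 5 (20.8%), and KO replicate 2 was the lowest for 7. The mean centred value of those 24 genes was -0.11 in WT replicate 1 and -0.34 in KO replicate 2, against 0.022 to 0.17 in the others. NK receptor genes as a list were not low in WT replicate 1. The mean centred value of 19 NK receptor and identity genes was 0.18 there, the highest of the 6 libraries, and that of 8 general leukocyte genes was 0.12, against -0.27 to 0.33 in the others.

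Further genes of T and NK cells came from lists that hold none of the 10, and 0 genes of any list reached an adjusted p of 0.05 by limma. Among 24 genes of T cell receptor signalling and identity, the KO mean was higher in 9 and lower in 15, with a median difference of -0.085 and 0 at an unadjusted p under 0.05. The surface protein gene Thy1 (-1.01), the transcription factor gene Lef1 (-0.95), the phosphatase gene Ubash3a (-0.82) and the costimulatory receptor gene Cd28 (-0.44) had the smallest p of this list, and the genotypes overlapped in all 24 genes. In that list of 24, the receptor genes Cd247 (0.61), Trac (-0.14), Trbc1 (0.22) and Trbc2 (0.30) did not separate as Cd3e and Cd3g did. Among 19 NK receptor and identity genes, the KO mean was the higher for 5 and the lower for 14, and the median difference was -0.26. The inhibitory receptor genes Klra7 (-1.15, unadjusted p 0.0375 by limma) and Klra3 (-1.11, 0.0472) were the 2 of 19 under 0.05, where 4.34% of all genes tested were under it and 2.56% were lower in KO, and both had an adjusted p of 0.999. Klra genes are close copies of each other, so their counts are uncertain. The KO values of Klra7 (0.70, 0.54 and 0.23) and Klra3 (0.45, 0.34 and 0.14) were also too low to tell few reads from none. The same holds for Klra7 in WT replicate 2 (0.73) and Klra3 in WT replicate 3 (0.41).

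Among 14 effector and chemokine genes, 7 means were higher and 7 lower, with a median of -0.014 and 0 genes under an unadjusted p of 0.05. The granzyme K gene Gzmk had values of -0.34, -0.22 and -0.27 in the WT tumors and 1.33, -0.31 and 1.04 in the KO tumors. Of the KO tumors, 2 were above all others. For Gzmk values of -0.22 or lower, few reads cannot be told apart from none. The death ligand gene Fasl had values of 0.89, 1.13 and 2.73 in WT and 2.80, 2.56 and 2.65 in KO, with overlap at WT replicate 3. At the WT values of 0.89 and 1.13, too, few reads cannot be told apart from none. Among 15 regulatory and checkpoint receptor genes, 4 means were higher and 11 lower, with a median of -0.35 and 0 under an unadjusted p of 0.05. Ikzf2 (Helios, -1.03) and the costimulatory receptor gene Tnfrsf9 (-0.97) were the 2 of 15 whose genotypes did not overlap. The share of all genes tested was 8.28%, with 4.33% lower in KO. For Tnfrsf9 the separation was narrow, with 2.32 in the highest KO tumor against 2.36 in the lowest WT tumor. Its value of 0.85 in KO replicate 1 was too low to tell few reads from none. Foxp3, the factor of regulatory T cells, had values of 4.61, 4.23 and 3.95 in WT and 3.58, 3.10 and 4.70 in KO, with overlap. Among 9 gamma delta and innate T cell genes, 2 means were higher and 7 lower, with a median of -0.39.

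**Figure D5:**
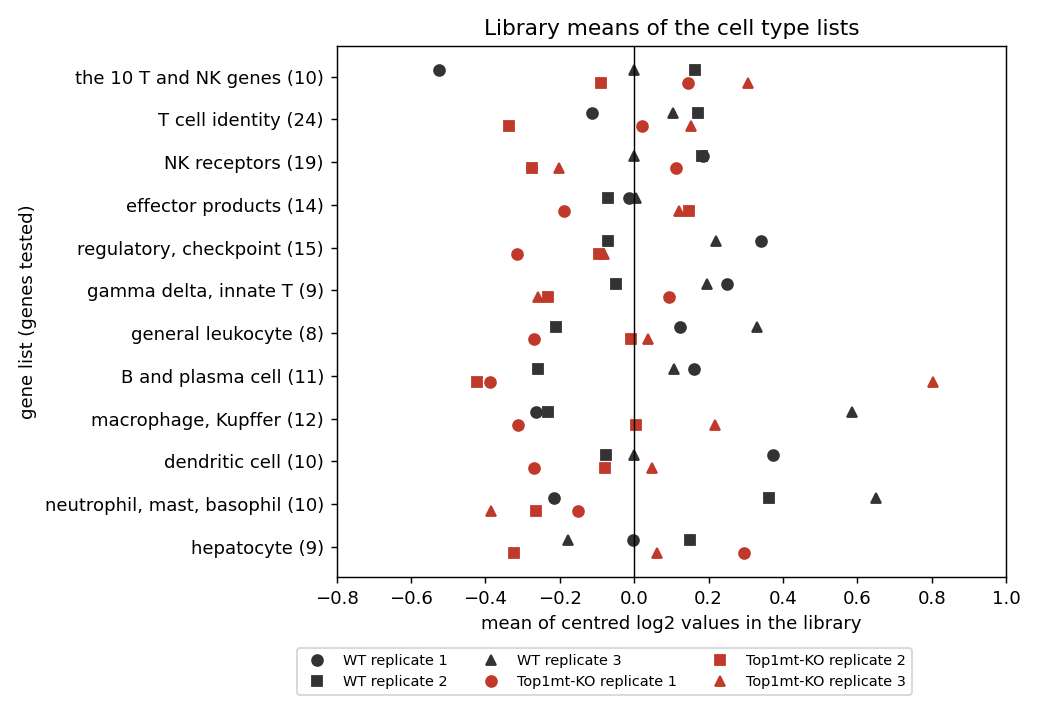
Mean of the centred log2 values of each cell type list (rows, number of genes in brackets) in each WT and KO library. For the 10 T and NK cell genes WT replicate 1 lies lowest at -0.52 and KO replicate 3 highest at 0.31, and for B cell genes KO replicate 3 lies highest at 0.80.

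The mean centred log2 value of the 10 genes ran from -0.52 to 0.16 in WT and from -0.089 to 0.31 in KO. That of general leukocyte genes ran from -0.21 to 0.33 in WT and from -0.27 to 0.036 in KO. The median difference was -0.13 over those leukocyte genes, and relative to them it was 0.26 for the 10 genes, of which Cd3g alone then did not overlap. Other cell types varied as well. Over the WT and the KO tumors, B and plasma cell markers ran from -0.26 to 0.16 and -0.42 to 0.80, macrophage and Kupffer cell markers from -0.26 to 0.59 and -0.31 to 0.22, dendritic cell markers from -0.075 to 0.37 and -0.27 to 0.049, and hepatocyte markers from -0.18 to 0.15 and -0.32 to 0.29. Neutrophil, mast cell and basophil markers ran from -0.22 to 0.65 in WT and from -0.39 to -0.15 in KO. Of those 10 markers, 3 had an unadjusted p under 0.05 by limma, all lower in KO, namely S100a8 (-1.39), S100a9 (-1.08) and Cpa3 (-1.09), where 2.56% of all genes tested had such a p and were lower. The KO values of Cpa3 (0.34, 0.16 and -0.19) and that of WT replicate 3 (0.29) were too low to tell few reads from none. The KO mean was higher for 3 of the 10 markers, Csf3r (0.15), Mcpt8 (0.27) and Fcer1a (0.30), and lower for 7. The part of these cell types in the values of the 10 genes was not tested.

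The genes most like the mean of the 10 over the 6 libraries were sought among all genes tested, as a description. Pearson's r was 0.989 for Lrrc18, 0.985 for Wdr83, 0.982 for Zfp759, 0.978 for Tnfsf8 and 0.977 for Gm15198. The libraries share their scaling, and these are the highest of many, so no p is given. Tnfsf8, which encodes the CD30 ligand, had values of 0.78, 2.15 and 2.04 in WT and 2.11, 1.89 and 2.43 in KO. Its lowest value was in WT replicate 1, which follows from choosing genes like the mean of the 10, also lowest there. At 0.78, few reads cannot be told apart from none.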

How the data were processed

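The study measured RNA in 3 WT and 3 Top1mt-KO liver tumors, and sample titles gave the genotype and the replicate. The authors deposited 1 log2 value per gene and library, normalized between libraries. The submitters' processing notes name bcl2fastq 2.17, Trimmomatic 0.36, STAR 2.5.1, Subread, DESeq2 and GRCm38, while the study's methods name BWA and Mm 8. The log2 transform is not given in the sources used here. Counts and depth are unknown, so no count model was run. A further 3 columns without a name were not used.

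Genotypes were compared by limma 3.58.1 (R 4.3.3) with a trend and Benjamini-Hochberg adjustment, over 22677 genes left once the lowest 25% by mean were removed. A call needed an adjusted p of 0.05. The step was tested on simulated data. Single genes were also compared by an exact two-sided permutation test over 20 regroupings. Levels per kilobase use exon lengths of GENCODE M21, joined over all annotated transcripts of a gene. Results were recomputed with quantile normalization, limma without trend, no filter, a filter at the median, a replicate block, each library left out, and values relative to 8 leukocyte genes. Genes named beside the 10 were Top1mt, the first gene and up to 4 genes of smallest p in each list, and the 5 most like the mean of the 10. Gm42418, Csf3r, Mcpt8, Fcer1a, Zap70, Trac, Trbc1 and Trbc2 were named after their values were seen. The members and lists were chosen with earlier results of these data known.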

Additional observations from a re-analysis of the deposited data

How the results depend on the processing

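Of 116 values of the 10 genes under the alternatives, 13 had the opposite sign, in 5 genes, and the smallest adjusted p by limma was 0.835. Ncr1 was 0.019 with quantile normalization and 0.052 relative to the leukocyte genes. With 1 library left out, the log2 fold change ran from -0.29 to 0.42 for Cd4, -0.64 to 0.62 for Nkg7, -0.82 to 0.57 for Gzmb, -0.22 to 0.24 for Prf1 and -0.91 to 0.51 for Ncr1. The median of the 10 ran from -0.010 (without KO replicate 3) to 0.35 (without KO replicate 2). Genes without overlap numbered 1 with quantile normalization and relative to the leukocyte genes, 1 of 6 with a filter at the median, which Cd3e did not pass, and 2 to 4 with 1 library left out (4 without WT replicate 3). Over all genes, 4 passed an adjusted p of 0.05 by limma with no filter, and 0 to 1 with 1 library left out, the 1 without KO replicate 1. With a filter at the median, 590 had an unadjusted p under 0.05, against 985. The causes were not tested. With the replicate block 0 genes passed, 912 had an unadjusted p under 0.05 and the median of the 10 was 0.10. Deviations from the group means correlated at -0.12, -0.076 and 0.052 between libraries of the same number. Such values show no pairing by number, but they cannot exclude a source shared by those libraries. Unknown depth limits what can be said of genes at these levels.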

Other observations

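Zap70, a kinase that acts downstream of the T cell receptor and was named here after its values were seen, was listed far above Cd3e, with log2 values of 6.56, 6.94 and 8.03 in WT and 8.84, 5.70 and 7.0 in KO (replicates 1, 2 and 3). It was highest in KO replicate 1, where Cd3e was lowest. The KO minus WT difference was 0.0023 (standard error 0.74). Ifng, the interferon that activated T and NK cells secrete, lay between -0.19 and 0.032, below each of the 10 genes in all 6 tumors. At such values, few reads of Ifng cannot be told apart from none.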
